A study of Rattus norvegicus with 6 samples.

Results

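The genes described here encode core enzymes of the tricarboxylic acid cycle: citrate synthase (Cs), the 3 subunits of NAD-dependent isocitrate dehydrogenase (Idh3a, Idh3b and Idh3g), 2 genes of the 2-oxoglutarate dehydrogenase complex (Ogdh and Dlst), 2 subunits of succinyl-CoA synthetase (Suclg1 and Sucla2) and mitochondrial malate dehydrogenase (Mdh2). Members were taken by gene name from the deposited expression table of 32623 genes. Of the 9 members, 8 were found, and all 8 were among the 13964 genes tested. Expression under the name Ogdh was not analysed here. RNA was sequenced from 6 samples of heart muscle of wild-type male rats. The sham group, operated without a described ligation and labelled with the same 30 min, comprised 3 samples, and the ischemia group comprised 3 samples in which the left anterior descending coronary artery was tied over a tube for 30 min. Neither group carried a transgene or received a drug according to the labels. Strain, age and the region of the heart taken were not given, and p-values measure only the spread between these samples, since the labels do not say whether those of a group came from separate animals.

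The tricarboxylic acid cycle runs in the mitochondrial matrix, where it oxidizes the acetyl groups derived from fatty acids, pyruvate and ketone bodies and hands electrons to the respiratory chain as NADH and FADH2. Cardiac muscle is packed with mitochondria and depends on this route for ATP. When a coronary artery is closed, oxygen no longer accepts the electrons, NADH accumulates and flux through the cycle falls before any enzyme needs to change in amount.

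The libraries held 68529126 to 79591989 counts each, which left the members with at least 8961 counts in every sample. Several libraries stood apart in ways that touch the values below. The summed CPM (counts scaled to the size of the library) of 6 atrial genes, among them Nppa and Myl7, were 48379 and 36374 in sham 1 and 3 but 416 in sham 2, and were 1230 to 9332 in ischemia. The 3 ventricular genes Myl2, Myl3 and Irx4 went the other way, at 903 and 1081 CPM in sham 1 and 3, 11862 in sham 2 and 2966 to 6223 in ischemia. Cardiomyocyte genes (9 of 10 listed had a row) were present in every sample, as the labelled tissue requires, at 63969 to 96700 CPM in sham and 15592 to 36179 CPM in ischemia. All ischemia values were below all sham values for 6 of 9, against 15.0% of all tested genes. Myeloid genes summed to 157 to 227 CPM in sham and 1283 to 7589 CPM in ischemia. Of these, 9 of 10 rose at an adjusted p under 0.05 by edgeR, against 5.18% of all tested genes. The neutrophil gene Retnlg was at 0 in all sham samples. Fibroblast genes (4 of 5 listed had a row) summed to 3673, 3396 and 8720 CPM in sham and 723 to 2463 CPM in ischemia. Fat genes were highest in sham 3 at 551 CPM, and lung genes reached 235 CPM in ischemia 1 against at most 8.43 CPM in any other sample.

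Promoters of the members were searched for known motifs as a description. RefSeq promoters of the GRCr8 build, from 250 bases before to 50 bases after the start, were given for 8 of the 9 members. Ogdh is among these 8, and none was given for Idh3a. The 7-base core recognised by ETS factors such as GABP, CCGGAAG, was searched on both strands. It lay in 4 of the 8 member promoters and in 2 of the 8 promoters of the further cycle genes described below. The share was 16.7% of the 10744 promoters of tested genes and 8.75% of all 33469 promoters. The NRF1 motif GCGCANGCG lay in 1 member promoter, that of Sucla2, and in 2 of those 8 further promoters, against 12.5% of the promoters of tested genes. Both factors are known as regulators of nuclear genes for mitochondrial proteins. The 60 bases around each match are printed 5′ to 3′ in the direction of the gene, with the match in capitals (CTTCCGG is the core read on the opposite strand).
Idh3b promoter, chr3:137939991-137940050, minus strand: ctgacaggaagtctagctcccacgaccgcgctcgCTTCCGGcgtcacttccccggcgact
Dlst promoter, chr6:110489646-110489705, plus strand: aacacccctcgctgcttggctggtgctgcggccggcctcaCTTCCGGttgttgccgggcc
Mdh2 promoter, chr12:26544032-26544091, minus strand: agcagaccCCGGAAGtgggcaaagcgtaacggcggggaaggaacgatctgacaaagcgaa
Idh3g promoter, chrX:156675543-156675602, minus strand: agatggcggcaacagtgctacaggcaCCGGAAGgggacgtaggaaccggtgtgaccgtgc
Sucla2 promoter, chr15:55161831-55161890, plus strand: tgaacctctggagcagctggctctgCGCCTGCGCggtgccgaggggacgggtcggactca
The matches began 26, 20, 242 and 94 bases before the start of Idh3b, Dlst, Mdh2 and Idh3g, and 38 bases before that of Sucla2, and none overlapped a match of another motif searched. The GC-rich box GGGCGG lay in 5 of the 8 member promoters against 61.1% of the promoters of tested genes, TGACGTCA in 2 against 2.84% and CACGTG in 1 against 9.09%. The estrogen-related receptor element TCAAGGTCA was in 0 of the 8 member windows, in 1 of the 8 further ones (Sdhd) and in 0.316% of those of tested genes. A match is a description of letters and not of binding.

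None of the 8 members passed the edgeR test between ischemia and sham. All 8 had a lower fitted level in ischemia when libraries were scaled to the bulk of genes, with log2 fold changes (ischemia minus sham) from -0.86 to -0.41 and a median of -0.57, which is a level 0.675 times that of sham, and all 8 had a higher one, with a median of 0.70, when libraries were scaled to 9 cardiomyocyte genes. Over all tested genes the median under the first scaling was -0.0015, and 50.1% were negative. By edgeR's quasi-likelihood test the adjusted p-values of the members ran from 0.103 to 0.498, so that 0 of 8 were called lower and 0 higher, where 1.53% of all tested genes were called lower and 5.18% higher. At an unadjusted p under 0.05, 2 of 8 members were lower, against 14.2% of all tested genes. DESeq2 called 1 of 8 lower (Sucla2), against 12.5% of all tested genes, and limma called 0, with 3 at an unadjusted p under 0.05, where 4426 of the 13964 tested genes were. In tissue samples of this kind, fewer cardiomyocytes and less of these transcripts per cardiomyocyte cannot be told apart.

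Groups that did not overlap were seen for 3 of 8 members (37.5%), all with the ischemia values below the sham values, against 15.0% of all tested genes; no member had its ischemia values above, against 23.6% of all tested genes. This count moved with ischemia 1. Without ischemia 1, the other ischemia samples lay below every sham sample for 8 of 8 members, against 25.8% of all tested genes. With sham 1 and 3 left out the count was also 8, against 23.7% of all tested genes, but this keeps as the sham group only the sample that was the highest for every member but Sucla2, a choice made after seeing the data, and nothing is read from it. The count stayed at 3 without sham 2. The exact two-sided permutation test on single FPKM values cannot go below p = 0.1 with 3 samples against 3.

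**Figure D1:**
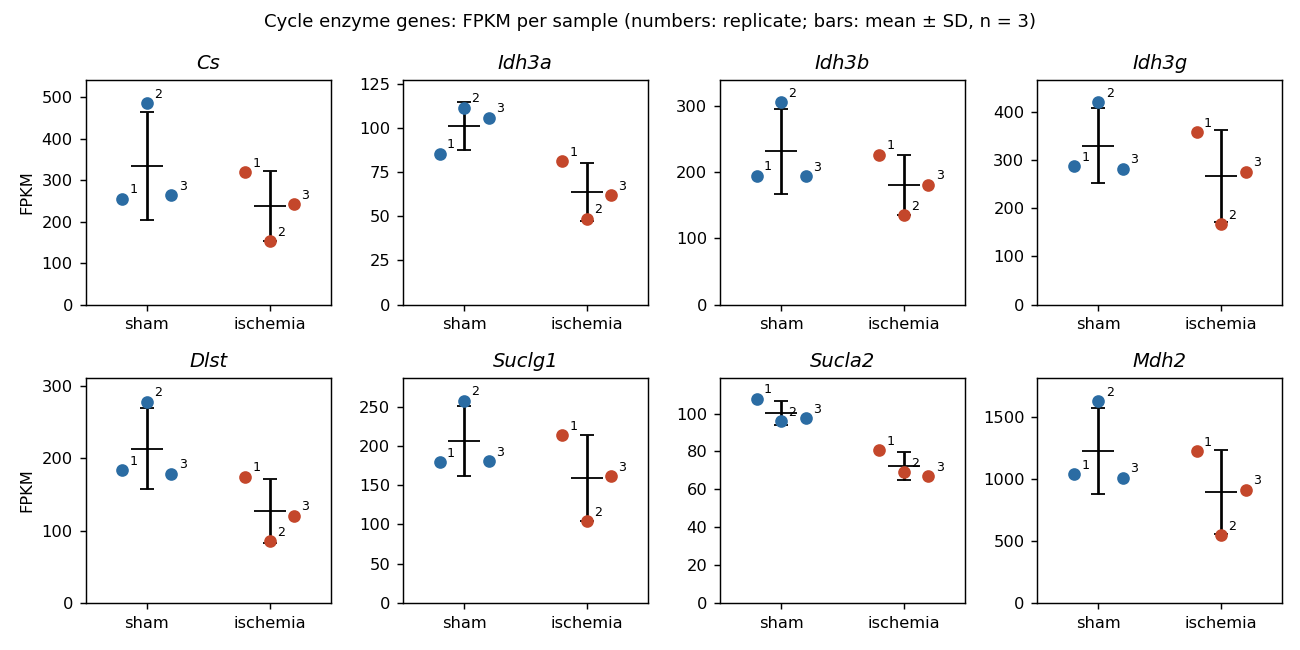
FPKM (y axis, from 0) of the 8 cycle enzyme genes in the 3 sham and 3 ischemia samples, with the replicate number beside each point and bars for mean ± SD (n = 3). Sham 2 is the highest sample for every gene but Sucla2, ischemia 2 is the lowest for every gene but Sucla2, and the groups are separate for Idh3a, Dlst and Sucla2.

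Levels below are FPKM (fragments scaled to transcript length and library size), which may be compared between genes, and coordinates are those of the deposited table, whose genome build was not given in the sources used here. Mdh2 had the highest sham level at 1223 ± 347 (SD, n = 3) and was above Cs in 6 of 6 samples. Cs (335 ± 131) and Idh3g (330 ± 77.8) followed and could not be ordered, since Cs was the higher in only 1 of 6 samples. Idh3b (232 ± 64.6) lay below Idh3g in 6 of 6 samples and above Dlst (213 ± 56.0) in 6 of 6. Dlst and Suclg1 (206 ± 44.7) could not be ordered, with Dlst the higher in 2 of 6 samples. Suclg1 was above Idh3a in 6 of 6 samples, and Idh3a (101 ± 13.6) and Sucla2 (100 ± 6.42) could not be ordered, with Idh3a the higher in 3 of 6.

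Cs (ENSRNOG00000023520, chr7:2752680-2778963, plus strand) encodes citrate synthase, which condenses acetyl-CoA with oxaloacetate and opens the cycle. Its FPKM was 255, 485 and 263 in sham 1 to 3 and 320, 153 and 241 in ischemia 1 to 3. The groups overlapped, since ischemia 1 was above sham 1 and 3, sham 2 was the highest sample and ischemia 2 the lowest. For Cs the log2 fold change came to -0.62 ± 0.46 (SE), with a 95% interval from -1.74 to 0.50 and an adjusted p of 0.375 by edgeR.

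The 3 subunit genes of NAD-dependent isocitrate dehydrogenase had log2 fold changes whose intervals overlapped, negative except with cardiomyocyte-gene scaling, and none passed the test by edgeR. Idh3a (ENSRNOG00000010277, chr8:59164572-59183908, plus strand), which encodes the catalytic alpha subunit, was at 85.5, 112 and 106 FPKM in sham and 81.3, 48.6 and 62.0 FPKM in ischemia. The ischemia values lay below every sham value, with sham 1 and ischemia 1 only a few FPKM apart. Its log2 fold change was -0.76 ± 0.30 (SE), with a 95% interval from -1.47 to -0.04, an unadjusted p of 0.0423 and an adjusted p of 0.141 by edgeR.

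Idh3b (ENSRNOG00000007316, chr3:122808564-122813583, minus strand) encodes the beta subunit, which pairs with the catalytic one, and was at 195, 306 and 194 FPKM in sham and 227, 135 and 181 FPKM in ischemia. Idh3g (ENSRNOG00000055572, chrX:156999826-157008733, plus strand) encodes the regulatory gamma subunit and was at 288, 419 and 282 FPKM in sham and 358, 167 and 276 FPKM in ischemia. In both, ischemia 1 was above sham 1 and 3 and the groups overlapped. The log2 fold changes were -0.48 ± 0.37 and -0.41 ± 0.40 (SE), with adjusted p-values of 0.393 and 0.498 by edgeR.

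The ratio of Idh3b to Idh3a FPKM within a sample was 2.28, 2.75 and 1.84 in sham and 2.79, 2.79 and 2.92 in ischemia. Ischemia was above sham in every sample, though sham 2 lay within a few hundredths of ischemia 1 and 2, and the exact permutation test gave p = 0.1, its lower limit here. The ratio of Idh3g to Idh3b overlapped between the groups, at 1.37 to 1.48 in sham and 1.23 to 1.58 in ischemia, and that of Idh3g to Idh3a ran from 2.67 to 3.76 and from 3.44 to 4.45 (exact permutation p = 0.2). Of 10 such ratios computed between cycle genes, 2 did not overlap between the groups, and with the exact permutation test none can go below p = 0.1 before adjustment.

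Dlst (ENSRNOG00000005061, chr6:108936664-108959803, plus strand) encodes the succinyltransferase core of the 2-oxoglutarate dehydrogenase complex. Its FPKM was 184, 278 and 178 in sham and 175, 85.6 and 121 across the ischemia samples. The groups were separate, with ischemia 1 the lower but close to sham 1 and 3. Its log2 fold change was the most negative of the members, -0.86 ± 0.41 (SE), with a 95% interval from -1.84 to 0.11 and an adjusted p of 0.190 by edgeR. The table also held a row under the symbol LOC103693780 (chr14:86414949-86613327, plus strand) that its own description calls 2-oxoglutarate dehydrogenase, mitochondrial-like. It does not carry a member's name and was picked after its values were seen. Whether it is the rat Ogdh gene was not tested. It was at 147, 277 and 141 FPKM in sham and 160, 52.6 and 102 FPKM in ischemia, for a log2 fold change of -0.97 ± 0.55 (SE) and an adjusted p of 0.259 by edgeR. The order of its samples was like that of Dlst, but ischemia 1 was above sham 1 and 3.

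Succinyl-CoA synthetase, which makes ATP or GTP directly from succinyl-CoA, is built of an alpha subunit (Suclg1) and either an ATP-forming (Sucla2) or a GTP-forming (Suclg2) beta subunit. Sucla2 (ENSRNOG00000017481, chr15:55461695-55516952, plus strand) was at 108, 96.0 and 97.6 FPKM in sham and 80.6, 69.0 and 67.0 FPKM in ischemia. No ischemia value reached the sham range, and Sucla2 varied least within a group, with a coefficient of variation of 6.39% in sham and 10.2% in ischemia against 13.5 to 39.0% and 25.2 to 37.8% for the other members. Its log2 fold change was -0.57 ± 0.19 (SE), with a 95% interval from -1.02 to -0.12, an unadjusted p of 0.0214 and an adjusted p of 0.103 by edgeR. DESeq2 gave it -0.59 with an adjusted p of 0.0130, while its adjusted p over all alternatives ran up to 0.395.

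Suclg1 (ENSRNOG00000005587, chr4:101180404-101210746, plus strand) was at 179, 257 and 181 FPKM in sham and 214, 104 and 161 FPKM in ischemia. The groups overlapped, with ischemia 1 above sham 1 and 3, for a log2 fold change of -0.48 ± 0.39 (SE) with an adjusted p of 0.415 by edgeR. The ratio of Suclg1 to Sucla2 FPKM therefore followed the sample and not the group. It was 2.68, 2.65 and 2.40 in sham 2, ischemia 1 and ischemia 3 and 1.66, 1.85 and 1.5 in sham 1, sham 3 and ischemia 2 (exact permutation p = 1). The 3 samples with the higher ratio also had the highest summed ventricular genes, and the part of the sampled region in this was not tested.

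Mdh2 (ENSRNOG00000001440, chr12:23941448-23954431, minus strand) encodes the mitochondrial malate dehydrogenase, which regenerates oxaloacetate. Its FPKM was 1037, 1624 and 1008 in sham and 1220, 546 and 914 across the ischemia samples. The groups overlapped, with ischemia 1 above sham 1 and 3. The fitted log2 fold change was -0.57 ± 0.45 (SE), with a 95% interval from -1.64 to 0.51 and an adjusted p of 0.398 by edgeR. The ratio of Mdh2 to Cs, the enzymes on either side of oxaloacetate, varied little, at 3.35 to 4.06 in sham and 3.58 to 3.82 in ischemia (exact permutation p = 0.8).

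Mdh1, the cytosolic malate dehydrogenase of the malate-aspartate shuttle, was at 1294, 1475 and 1122 FPKM in sham and 1002, 301 and 528 FPKM in ischemia. All ischemia values were below all sham values, with a log2 fold change of -1.18 ± 0.50 (SE) and an adjusted p of 0.158 by edgeR. The ratio of Mdh2 to Mdh1 FPKM was 0.801, 1.10 and 0.898 in sham and 1.22, 1.81 and 1.73 in ischemia. Ischemia was above sham in all samples, with a mean of 1.59 ± 0.323 (SD, n = 3) against 0.933 ± 0.153 (SD, n = 3) and an exact permutation p of 0.1, again the smallest possible. This ratio does not depend on how libraries are scaled.

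**Figure D2:**
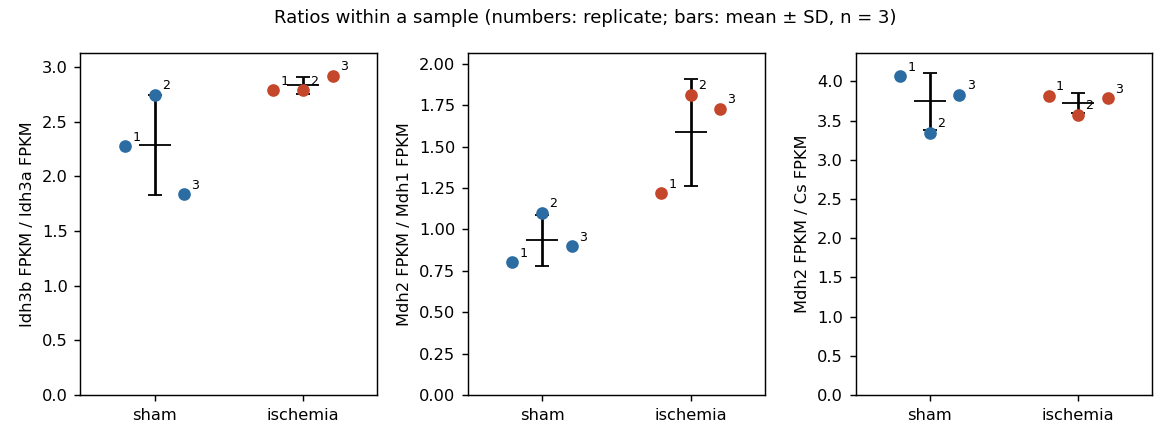
Ratios of FPKM within a sample (y axes, from 0) for Idh3b to Idh3a, Mdh2 to Mdh1 and Mdh2 to Cs, with replicate numbers and bars for mean ± SD (n = 3). The first 2 ratios are higher in every ischemia sample than in any sham sample, with sham 2 closest, while the ratio of Mdh2 to Cs overlaps.

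The members moved together from sample to sample. The mean over the 8 members of log2 CPM minus the sham mean was -0.27, 0.55 and -0.28 in sham and -0.15, -1.16 and -0.47 in ischemia. Ischemia 1 was thus above sham 1 and 3, and the pooled SD within groups was 0.498. As a share of all counts, the members made up 0.390%, 0.590% and 0.389% in sham and 0.439%, 0.219% and 0.331% across the ischemia samples. The sample with the fewest member counts, ischemia 2, had the lowest cardiomyocyte sum (15592 CPM) and the highest myeloid sum (7589 CPM). The highest, sham 2, had the highest cardiomyocyte sum (96700 CPM), the highest ventricular sum and the lowest atrial sum. With the atrial genes as a covariate, the members' log2 fold changes ran from -0.97 to -0.52 with a median of -0.66, 0 of 8 were called and adjusted p-values were 0.299 to 0.568 by edgeR (0 of 8 at an unadjusted p under 0.05). In that fit 0 of the 13964 tested genes were called, and 2396 had an unadjusted p under 0.05. The part of the myeloid and fibroblast shifts in the members' values was not tested. With sham 1 and 3, the samples high in atrial genes, left out, the members' median log2 fold change was -1.07 and rested on 1 sham sample, without sham 2 it was -0.15 (-0.09 for Cs, -0.55 for Idh3a, -0.08 for Idh3b, -0.06 for Idh3g, -0.48 for Dlst, -0.14 for Suclg1, -0.49 for Sucla2 and -0.16 for Mdh2), and without ischemia 2 it was -0.32. The members' nuclear neighbours in the respiratory chain followed the same course, with a median deviation of genes annotated to oxidative phosphorylation of -0.24, 0.50 and -0.27 in sham and -0.0043, -1.05 and -0.29 across the ischemia samples.

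**Figure D3:**
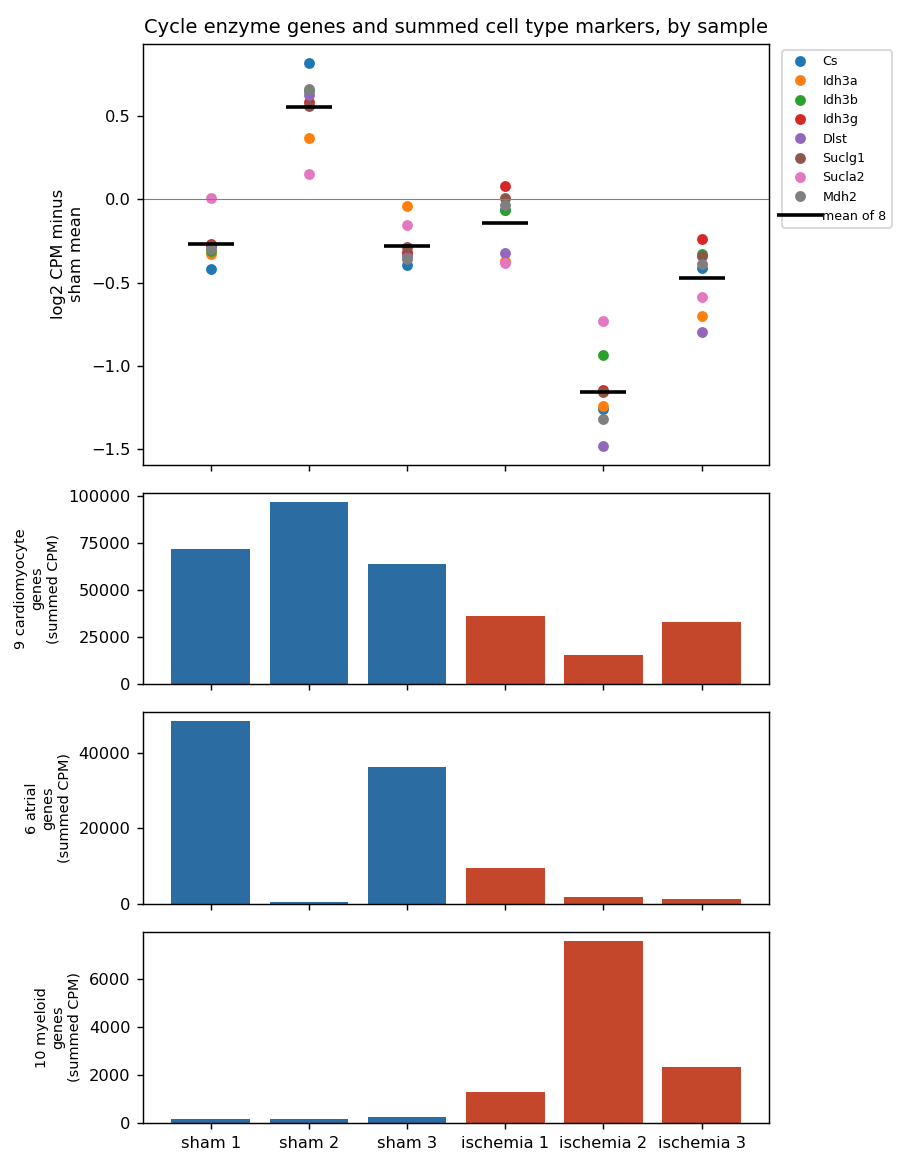
Top, log2 CPM of each cycle enzyme gene minus its sham mean (y axis) in each of the 6 samples, with a black bar for the mean of the 8 genes. Below, summed CPM of 9 cardiomyocyte, 6 atrial and 10 myeloid genes in the same samples (blue sham, red ischemia); the mean of the members is 0.55 in sham 2, which has the lowest atrial sum, and -1.16 in ischemia 2, which has the highest myeloid sum.

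Relative to the mean of the cardiomyocyte genes, the direction was opposite. Each member's FPKM was divided by the geometric mean FPKM of the 9 cardiomyocyte genes in the same sample. For Mdh2 this gave 0.576, 0.861 and 0.647 in sham and 1.18, 1.15 and 0.961 in ischemia. All ischemia values were above all sham values for Mdh2, and likewise for Idh3b, Idh3g, Suclg1 and Sucla2, while Cs, Idh3a and Dlst overlapped. That is 5 of 8 members, against 63.9% of all tested genes treated the same way. Refitting with libraries scaled to those 9 genes gave the members log2 fold changes of 0.39 to 0.81, with 0 of 8 called and adjusted p-values of 0.0953 to 0.393 by edgeR (0 of 8 at an unadjusted p under 0.05), while the median of all tested genes moved to 1.36. In that fit 34.5% of all tested genes were called higher and 0.587% lower, and 7755 of 13964 had an unadjusted p under 0.05. The members lay below the median of all genes under either scaling. A change of scaling moves all genes by a similar amount, so the second scaling is no separate result on this. The median of the 9 cardiomyocyte genes themselves was -1.11 under the first scaling, against -0.57 for the members, but those genes were spread widely. The contractile genes Tnnc1 (-0.31), Tnnt2 (-0.43) and Tnni3 (-0.59) were near the members, while Myh6 (-2.38), Actc1 (-1.70), Atp2a2 (-1.57) and Ryr2 (-1.51) were far below them.

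**Figure D4:**
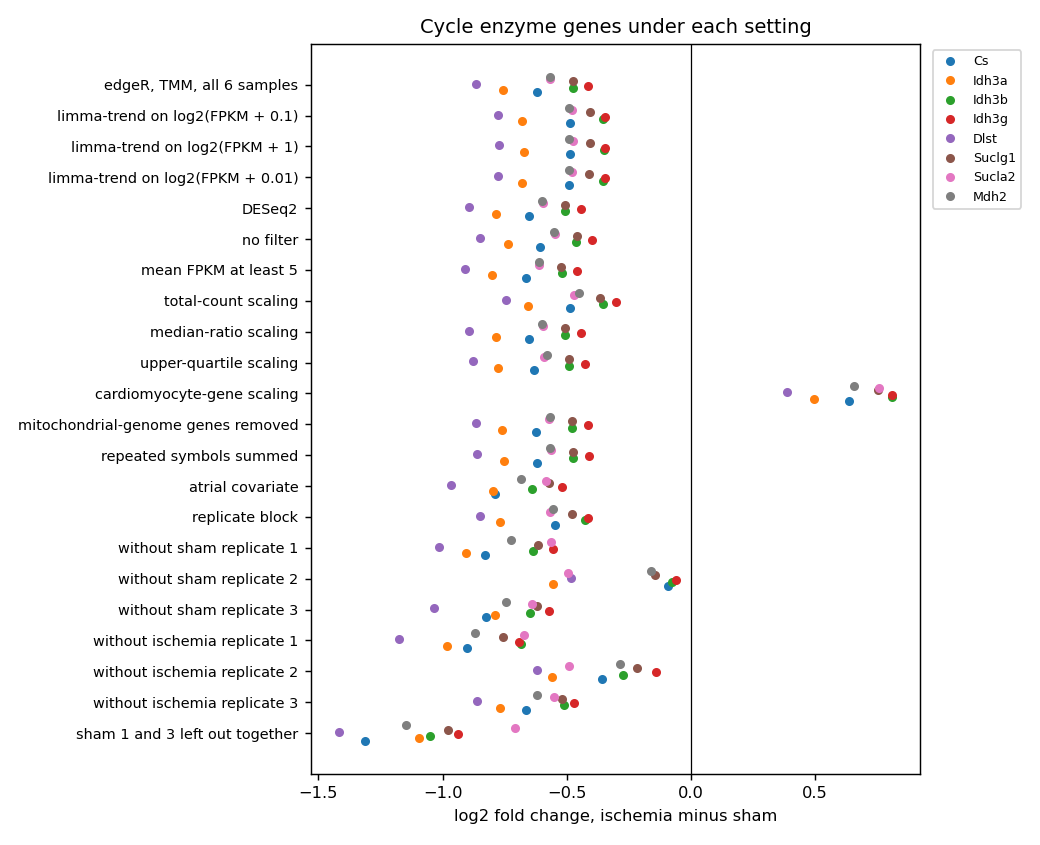
Log2 fold change, ischemia minus sham (x axis), of each of the 8 cycle enzyme genes under each scaling, tool, filter, covariate and set of samples (y axis). Every value is below 0 except under cardiomyocyte-gene scaling, where all 8 are above 0, and without sham replicate 2 the median is -0.15.

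For 8 further genes of the cycle the values follow: Idh2 (the NADP-dependent isocitrate dehydrogenase), Dld (the dihydrolipoyl dehydrogenase subunit shared by several 2-oxo acid complexes), Suclg2, Sdha to Sdhd (the 4 subunits of succinate dehydrogenase, which is also complex II of the respiratory chain) and Fh (fumarase). By edgeR, 0 of 8 were called lower and 0 higher, 2 were lower at an unadjusted p under 0.05 and DESeq2 called 1 lower, against 1.53% lower and 5.18% higher, 14.2% and 12.5% of all tested genes. All 8 log2 fold changes were negative, from -0.90 to -0.38 with a median of -0.67, and the median turned to 0.57 with cardiomyocyte-gene scaling. Without sham 2, 7 of 8 were negative and the median was -0.34. Groups did not overlap for 2 of 8, both below, against 15.0% of all tested genes.

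Dld was at 71.5, 54.6 and 64.1 FPKM in sham and 51.8, 45.3 and 36.8 FPKM in ischemia. All ischemia values were below all sham values, sham 2 was the lowest of the sham samples, and its fitted log2 fold change was -0.59 ± 0.19 (SE) with an adjusted p of 0.0936 by edgeR. Sdhd, a membrane anchor of succinate dehydrogenase, was at 382, 440 and 359 FPKM in sham and 320, 148 and 208 FPKM in ischemia. Its groups did not overlap either, with a log2 fold change of -0.90 ± 0.36 (SE) and an adjusted p of 0.146 by edgeR. For the other 6 genes ischemia 1 was above at least 1 sham sample, and their log2 fold changes were -0.83 (Idh2), -0.77 (Sdha), -0.74 (Sdhc), -0.58 (Fh), -0.39 (Sdhb) and -0.38 (Suclg2), with adjusted p-values of 0.227 to 0.574 by edgeR.

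Idh2 was at a higher FPKM than each of the 3 Idh3 genes in every sample. It was at 1037, 2034 and 972 FPKM in sham and 1212, 400 and 871 FPKM in ischemia, and its ratio to Idh3a ran from 9.19 to 18.2 in sham and from 8.23 to 14.9 in ischemia (exact permutation p = 0.9). Sham 2 had the highest and ischemia 2 the lowest ratio, and the groups overlapped.

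**Figure D5:**
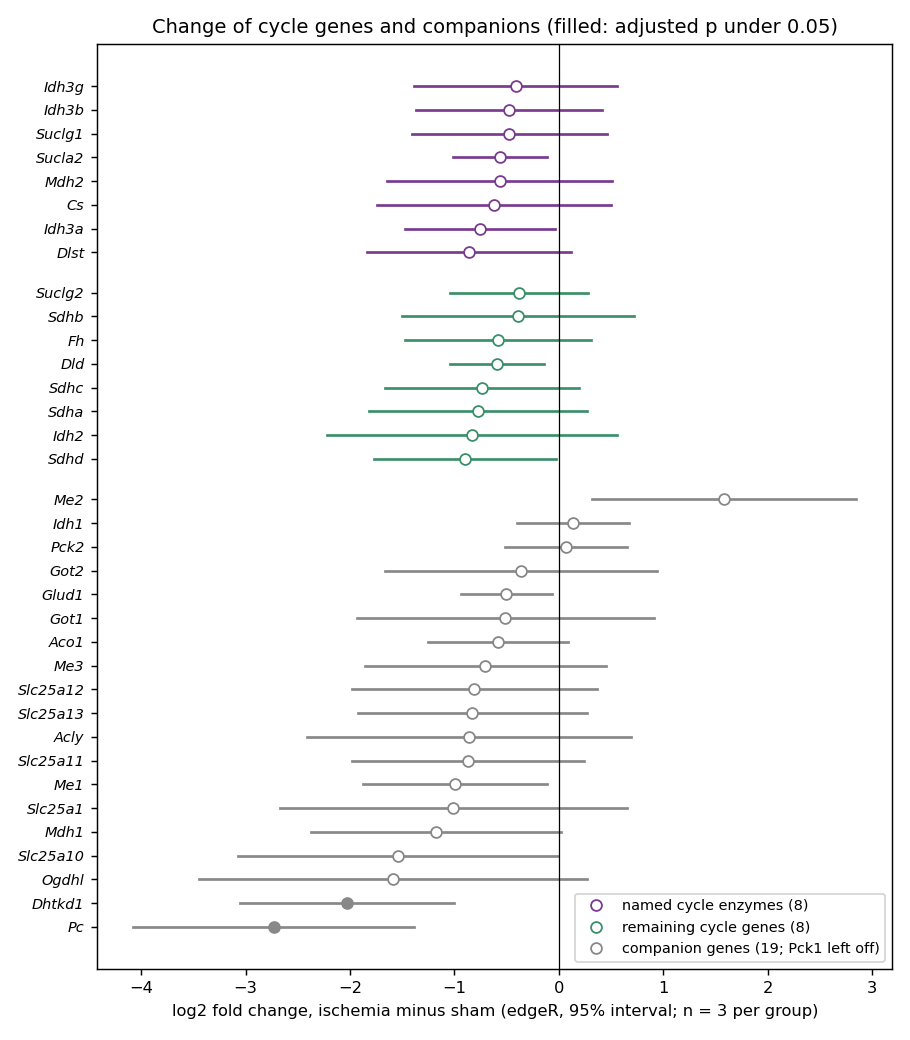
Log2 fold change, ischemia minus sham (x axis), with 95% intervals from edgeR for 8 named cycle enzymes, 8 remaining cycle genes and 19 companion genes (Pck1, at -5.97, is left off), with filled points for an adjusted p under 0.05. The 8 enzymes and the 8 remaining genes are at negative values and open, and turn positive in median with cardiomyocyte-gene scaling, while Pc and Dhtkd1 are filled.

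Genes that feed the cycle, draw from it or carry its intermediates across the inner membrane formed a list of 20 companions. By edgeR, 2 of these fell in ischemia and 0 rose, against 1.53% and 5.18% of all tested genes. An unadjusted p under 0.05 was found for 7 (6 lower), against 32.4% of all tested genes. DESeq2 called 5 lower and 1 higher, against 12.5% lower and 2071 of 13964 higher. The limma fit called 3 lower and 0 higher, against 1.88% lower and 850 of 13964 higher. Without ischemia 1, edgeR called 4 of the 20 lower, against 7.98% of all tested genes. Of the 20, 17 had negative log2 fold changes, with a median of -0.85, against 6 and a median of 0.36 with cardiomyocyte-gene scaling. The median was -0.55 without ischemia 2. Groups did not overlap for 8 of 20, with 7 below and 1 above, against 15.0% and 23.6% of all tested genes.

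Pc, pyruvate carboxylase, which refills the cycle with oxaloacetate, fell with a log2 fold change of -2.73 ± 0.56 (SE) and an adjusted p of 0.0446 by edgeR. It was at 14.1, 13.4 and 42.2 FPKM in sham and 5.09, 2.08 and 3.54 FPKM in ischemia. All ischemia values were below all sham values, and the highest, in sham 3, was in the sample with the highest fat gene sum (551 CPM), whose part in the value was not tested. Dhtkd1, which encodes the 2-oxoadipate dehydrogenase of lysine breakdown and is a relative of Ogdh, fell with a log2 fold change of -2.03 ± 0.43 (SE) and an adjusted p of 0.0466 by edgeR. It was at 2.39, 2.26 and 2.71 FPKM in sham and 0.910, 0.333 and 0.640 FPKM in ischemia, and the sham samples differed little. Both log2 fold changes stayed negative under every alternative that tested the gene, with adjusted p-values from 1.72e-05 (Pc) and 1.02e-04 (Dhtkd1) by DESeq2 up to 0.394 for both with sham 1 and 3 left out. With cardiomyocyte-gene scaling they were -1.69 for Pc and -0.92 for Dhtkd1, with the block -2.68 and -2.15, and with 1 sample left out -3.09 to -2.08 and -2.40 to -1.71. By edgeR, neither call held without a filter (adjusted p = 0.0519 for Pc and 0.0574 for Dhtkd1), with total-count scaling (0.0512 for both), cardiomyocyte-gene scaling (0.0510 and 0.144), atrial genes as a covariate (0.209 and 0.214) or the replicate number as a block (0.104 and 0.115), and that of Pc was also lost without ischemia 2 (0.0729). Both were lost when any sham sample or ischemia 3 was left out, where no gene of the 13964 was called by edgeR although 3020 to 3809 had an unadjusted p under 0.05.

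Me2, a mitochondrial malic enzyme that turns malate into pyruvate, had the highest log2 fold change of the companions, 1.58 ± 0.52 (SE), with an adjusted p of 0.104 by edgeR. It was at 3.45, 1.57 and 3.53 FPKM in sham and 5.28, 17.2 and 4.86 FPKM in ischemia. The ischemia values were all above the sham values, and the highest, in ischemia 2, was in the sample with the highest myeloid sum (7589 CPM), whose part in it was not tested. Idh1, the cytosolic NADP-dependent isocitrate dehydrogenase, followed with 0.14 ± 0.22 (SE) and an adjusted p of 0.690 by edgeR. Pck1, the cytosolic phosphoenolpyruvate carboxykinase, had the lowest log2 fold change, -5.97 ± 2.03 (SE), with an adjusted p of 0.109 by edgeR on counts of 674, 2658 and 11935 in sham and 261, 0 and 8 in ischemia. Its sham values differed among themselves by more than 10-fold and were highest in sham 3.

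Genes that the table itself annotates to the citrate cycle, the members among them, numbered 29 tested. Of these, 28 had a negative log2 fold change, with a median of -0.76. Called lower were 1 by edgeR (Pc) and 5 by DESeq2, against 1.53% and 12.5% of all tested genes. With cardiomyocyte-gene scaling 4 were negative and the median was 0.49. Of 127 genes annotated to oxidative phosphorylation, 109 were negative with a median of -0.38, 0 were called by edgeR and 9 passed before adjustment (7 lower and 2 higher). Of 36 annotated to fatty acid degradation, 33 were negative with a median of -0.51, 0 were called by edgeR and 7 passed before adjustment (5 lower and 2 higher), where 32.4% of all tested genes passed in either direction. With cardiomyocyte-gene scaling 3 of the 127 and 6 of the 36 were negative, 19 of the 127 and 3 of the 36 were called higher, against 34.5% of all tested genes, and the medians were 0.89 and 0.78. DESeq2 called 4 of the 127 lower and 1 higher, and 2 of the 36 lower and 2 higher. Over all tested genes DESeq2 called 12.5% lower and 2071 of 13964 higher. Without ischemia 1, edgeR called 4 lower and 1 higher of the 127, 5 lower and 1 higher of the 36, and 2 of the 29 citrate cycle genes lower. In that fit, 7.98% of all tested genes were called lower and 1490 of 13964 higher. The medians also turned on single samples. Without sham 2, 82 of the 127 genes of oxidative phosphorylation were negative with a median of -0.10, and 19 of the 36 of fatty acid degradation with a median of -0.06. Without ischemia 2 the medians were -0.16 and -0.30, and without ischemia 1 they were -0.60 and -0.79. The median of the 29 citrate cycle genes was -0.47 without sham 2 and -0.49 without ischemia 2.

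The genes most like the members in course were found by a root mean square difference in log2 CPM over the 6 samples. Each gene's deviations from its own mean over the 6 samples were compared with the mean of the members' deviations, taken in the same way. The nearest was Fh at 0.0372, itself an enzyme of the cycle. Gfm2 (a mitochondrial translation factor, 0.05), Npepl1 (0.0568), Ndufa2 (a subunit of respiratory complex I, 0.0571) and Alkbh3 (0.0639) came next. Mrpl4 (0.0640) and Mrpl19 (0.0685), both of the mitochondrial ribosome, Cisd1 (an outer mitochondrial membrane protein, 0.0656), Fam160b2 (0.0715) and Nprl3 (0.0732) completed the 10 nearest. The members themselves ran from 0.0679 (Suclg1) to 0.290 (Sucla2), so that Sucla2 was the member least like the others.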

How the data were processed

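Total RNA of 6 rat heart samples (3 sham, 3 ischemia) was sequenced from stranded libraries. The authors deposited gene counts and FPKM for each sample in 1 table, and the submitters' processing notes name STAR and HTSeq without versions. The genome build is not given in the sources used here. Raw counts were analysed in R 4.3.3 with edgeR 4.0.16 (quasi-likelihood test, TMM scaling, two-sided), with genes kept at a mean FPKM of at least 0.5 over all samples, and p-values were adjusted by Benjamini-Hochberg over the 13964 genes left, with a threshold of 0.05. The methods of the study state no test for these data. SE and 95% intervals are those of the edgeR log2 fold change. limma 3.58.1 on log2(FPKM + 0.1) and DESeq2 1.42.0 on counts were alternatives. The edgeR and limma fits were tested on simulated data. FPKM depends on all other transcripts of a library, so a few abundant ones can lower the rest, and mitochondrially encoded genes took 15.4 to 21.4% of counts. Each member had at least 8961 counts in every sample, while some companions had few or none in ischemia.

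Groups were taken from sample labels. The members and gene lists were chosen with earlier results of these data known. Named genes are all members found, 8 remaining cycle genes (1 more in the list is not reported here), the companions called and the 2 highest and 2 lowest of them, and the 10 genes of smallest root mean square difference. Mdh1 is given for its ratio, and LOC103693780 was chosen after its values were seen. Same-numbered samples did not deviate together, so numbers were not treated as pairs.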

Additional observations from a re-analysis of the deposited data

How the results depend on the processing

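The 8 members kept a negative log2 fold change in 20 of 21 alternatives. Scaling to the 9 cardiomyocyte genes reversed all 8, to 0.64 for Cs, 0.49 for Idh3a, 0.81 for Idh3b, 0.81 for Idh3g, 0.39 for Dlst, 0.75 for Suclg1, 0.76 for Sucla2 and 0.66 for Mdh2, with a median of 0.70 and a median of the remaining cycle genes of 0.57. That scaling moved the median of all tested genes to 1.36 and gave 4811 higher and 82 lower calls. DESeq2 called 1 member and 1 remaining cycle gene lower, and the cause was not tested. Leaving out 1 sample in turn called 0 members, with a median of -0.81 (without ischemia 1) to -0.15 (without sham 2), a median of the remaining cycle genes of -0.98 to -0.34, and 3 to 8 members with groups that did not overlap. Leaving out sham 1 and 3 together, an alternative chosen after seeing the data, gave 8 such members and a median of -1.07, with the lone sham sample assumed to vary like the ischemia samples.

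Calls over all genes moved by over 1.5 times: 2071 higher and 1742 lower by DESeq2, 493 and 93 without a filter, 509 and 83 with total-count scaling, 1490 and 1115 without ischemia 1, 462 and 109 without ischemia 2, and 0 with atrial genes as a covariate (2396 at an unadjusted p under 0.05) or without sham 1, 2, 3 or ischemia 3, against 723 and 214. Samples with the same replicate number did not deviate together (r = -0.05, -0.08 and -0.19). With the replicate number as a block, edgeR called 0 genes (3349 at an unadjusted p under 0.05), the members' median was -0.55 and their adjusted p 0.247 to 0.653.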
